A study of Mus musculus with 10 samples.

Results

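The 6 genes described here are Ppp1r14c, Lpl, Nr0b1, Cmpk2, Lypd6b and Adra2c. They were chosen by their measured FPKM values, as the strongest rises with a first Chd8 shRNA (shRNA1) that did not recur with a second (shRNA2). All 6 were found by symbol among the 23235 genes of the FPKM tables for both shRNAs. Chd8 codes for a chromatin remodeler of the CHD family. Radial glia of the mouse cortex were electroporated in utero on embryonic day 13 with a Chd8 or a control shRNA together with GFP, and cells positive for GFP were sorted on embryonic day 15. Each library came from a pool of 3 to 5 embryos, and the sort selects transfected cells, not a cell type. The 10 libraries were 3 Chd8 shRNA1 knockdown and 3 control libraries (replicates 10, 11 and 12) and 2 Chd8 shRNA2 knockdown and 2 control libraries (replicates 1 and 2). The sources used here do not give the mouse strain, the shRNA sequences or the design of the control shRNA. The shRNA, the set of libraries and the table change together, so they cannot be told apart.

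The members belong to different pathways. Adra2c codes for an alpha-2 adrenergic receptor, which couples to inhibitory Gi proteins and lowers cyclic AMP. Lypd6b codes for a Ly6/uPAR protein held at the membrane by a lipid anchor, and proteins of that family bind nicotinic acetylcholine receptors. Lpl is lipoprotein lipase, a secreted enzyme that frees fatty acids from circulating lipoproteins. Cmpk2 is a mitochondrial nucleotide kinase whose gene is known as interferon-induced. Ppp1r14c is an inhibitor of protein phosphatase 1 that is activated when protein kinase C phosphorylates it. Nr0b1 (DAX1) is an X-linked nuclear receptor without the usual DNA-binding domain, best known as a corepressor of steroidogenic factor 1.

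These genes rose together with shRNA1 because they were chosen for that rise. The start regions that RefSeq gives for 4 of them (Ppp1r14c, Nr0b1, Cmpk2 and Adra2c) are shown from 250 bases before to 50 bases after the start. The build is GRCm38.p6, and the sequences read 5′ to 3′ on the gene's strand. The windows are chr10:3365900-3366199, plus strand, for Ppp1r14c; chrX:86191525-86191824, plus strand, for Nr0b1; chr12:26468965-26469264, plus strand, for Cmpk2; and chr5:35278316-35278615, plus strand, for Adra2c. Capitals mark any of 12 motifs searched on both strands.
Ppp1r14c: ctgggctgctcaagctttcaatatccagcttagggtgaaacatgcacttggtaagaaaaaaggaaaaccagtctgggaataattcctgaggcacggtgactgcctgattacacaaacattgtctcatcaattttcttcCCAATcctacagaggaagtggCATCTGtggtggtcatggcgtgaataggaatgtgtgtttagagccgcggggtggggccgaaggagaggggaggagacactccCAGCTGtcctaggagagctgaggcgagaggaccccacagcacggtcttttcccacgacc
Nr0b1: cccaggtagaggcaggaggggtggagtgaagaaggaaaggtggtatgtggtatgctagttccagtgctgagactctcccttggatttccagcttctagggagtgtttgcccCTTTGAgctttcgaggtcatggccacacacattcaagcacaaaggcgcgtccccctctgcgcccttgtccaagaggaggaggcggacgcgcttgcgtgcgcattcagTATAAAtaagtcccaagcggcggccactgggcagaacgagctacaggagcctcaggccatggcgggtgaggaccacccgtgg
Cmpk2: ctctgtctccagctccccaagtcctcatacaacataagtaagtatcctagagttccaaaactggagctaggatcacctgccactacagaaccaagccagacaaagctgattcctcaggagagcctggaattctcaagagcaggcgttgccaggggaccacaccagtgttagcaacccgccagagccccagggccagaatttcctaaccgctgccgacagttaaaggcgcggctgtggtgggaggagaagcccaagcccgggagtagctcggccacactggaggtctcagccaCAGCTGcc
Adra2c: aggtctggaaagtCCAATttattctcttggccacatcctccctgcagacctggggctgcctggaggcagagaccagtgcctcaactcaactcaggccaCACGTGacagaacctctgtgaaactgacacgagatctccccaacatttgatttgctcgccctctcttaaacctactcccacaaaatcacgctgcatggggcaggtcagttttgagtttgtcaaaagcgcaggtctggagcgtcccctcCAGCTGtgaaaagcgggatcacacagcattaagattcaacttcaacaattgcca
The E-box CAGCTG was in 3 of these 4 windows (Ppp1r14c, Cmpk2 and Adra2c), and in 16.3% of the 32841 start windows of the table. It began at -9 in Ppp1r14c, at -4 in Adra2c and at 43 in Cmpk2, counted from the start. The CCAAT box was in the windows of Ppp1r14c and Adra2c and in 37.4% of all windows. Single windows held the E-boxes CAGATG (Ppp1r14c; 17.2% of all windows) and CACGTG (Adra2c; 7.15%), the TATA box TATAAA (Nr0b1; 13.6%) and the TCF/LEF core CTTTGA (Nr0b1; 16%). No match was found in the 4 windows for the GC box GGGCGG (35.7% of all windows), the cyclic AMP element TGACGTCA (1.79%) or the TGACG within it (20.8%), the NR5A element AAGGTCA (4.72%), an interferon element of a pair of TTTC with 2 free bases between them (3.44%) or the AP-1 site TGANTCA (7.81%). The windows were 51.3% to 58.7% G and C, against a median of 52.7% over all windows. Their ratios of observed to expected CpG were 0.331 to 0.551, against a median of 0.384. None of the 12 motifs was in all 4 windows.

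Absolute depth is unknown. From the smallest FPKM steps, depth relative to the first control ran from 0.956 to 1.39 in the shRNA1 libraries, highest in knockdown replicate 11. In the shRNA2 libraries it was 0.527 and 0.529 in knockdown and 1.22 in control replicate 2. The 1096 olfactory receptor genes, silent in cortex, averaged 0.672 and 0.557 FPKM in the 2 shRNA2 knockdown libraries and at most 0.00817 FPKM in the other 8. Chd8, the target, was at 53.6% of its control mean with shRNA1 (log2 fold change -0.65, SE 0.117, limma adjusted p = 0.0213, lower in 3 of 3 libraries) and at 68.0% with shRNA2 (-0.51, SE 0.233, adjusted p = 0.152, lower in 2 of 2). Exact permutation tests (two-sided) gave 0.1 and 0.333, the smallest values these designs allow. A knockdown group stood wholly below its controls for 17.1% of all genes tested with shRNA1 and 40.4% with shRNA2. The shRNA1 call of Chd8 was lost without knockdown replicate 10 (adjusted p = 0.0627), 11 (0.0895) or 12 (0.0542), or control replicate 10 (0.0624) or 12 (0.066).

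With shRNA1, the lowest knockdown library was at 1.99 (Lpl) to 3.13 times (Nr0b1) the highest control library in each of the 6 genes. This separation chose the members, so the values that follow are a description without a test. A knockdown group stood wholly above its controls for 18.6% of the 11291 genes tested with shRNA1, and 3.84% of them rose and 5.15% fell at an adjusted p under 0.05. The 6 members are among those that rose, as the choice required.

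Among the receptor and membrane genes, Adra2c was at 13.1, 13.3 and 14.1 FPKM in shRNA1 knockdown replicates 10, 11 and 12, against 6.04, 5.47 and 4.32 FPKM in control replicates 10, 11 and 12. Its knockdown values were the tightest of the 6 genes (coefficient of variation 3.75%), and the log2 fold change was 1.22 (SE 0.125; 2.56 times the control mean). With shRNA2 it was at 0.443 and 0.618 FPKM in knockdown replicates 1 and 2, against 0.28 and 0.496 FPKM in control replicates 1 and 2. Those groups overlapped, and 31.3% and 23.6% of the olfactory receptor genes were above Adra2c in the 2 knockdown libraries, so the receptor was not above the upper range of silent genes there. By rank within a library, Adra2c was above 74.8% to 75.8% of genes in the shRNA1 knockdown libraries and 61.5% to 65.0% in their controls, while in the shRNA2 controls it was above 44.5% and 47.5%. Lypd6b was at 8.68, 11.6 and 7.1 FPKM in shRNA1 knockdown libraries, against 3.16, 3.17 and 2.89 FPKM in controls. The controls lay within 1.1 times of each other and the knockdown libraries within 1.63 times (log2 fold change 1.29, SE 0.164). With shRNA2 it was at 1.59 and 2.28 FPKM in knockdown, between the 1.24 and 2.98 FPKM of the controls.

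Of the enzymes, Lpl had the highest level per length of the 6 genes. It was at 68.2, 97.4 and 59.6 FPKM in shRNA1 knockdown libraries, against 28.1, 29.9 and 18.9 FPKM in controls (log2 fold change 1.51, SE 0.214; 2.93 times the control mean). With shRNA2 it was at 18.7 and 13.9 FPKM in knockdown, against 19.3 and 29.1 FPKM in controls. There the groups did not overlap and the knockdown was the lower one, as for 40.4% of the 12461 genes tested with shRNA2. The gap was narrow: knockdown replicate 1 was at 0.971 times control replicate 1, and knockdown replicate 2 at 0.477 times control replicate 2. Cmpk2 was at 9.44, 14.2 and 9.59 FPKM in shRNA1 knockdown libraries, against 4.05, 4.24 and 3.21 FPKM in controls (log2 fold change 1.30, SE 0.17). With shRNA2 it was at 3.65 and 2.74 FPKM in knockdown, between the 4.18 and 2.33 FPKM of the controls.

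Ppp1r14c, the phosphatase inhibitor, had the largest fold change of the 6 genes on the log2 scale with shRNA1. It was at 32.1, 37.8 and 21.6 FPKM in knockdown libraries, against 6.94, 7.83 and 6.38 FPKM in controls (log2 fold change 1.94, SE 0.189; 4.32 times the control mean). With shRNA2 the means were 2.56 ± 0.571 FPKM in knockdown and 2.54 ± 0.609 FPKM in controls (SD, n = 2 each). Nr0b1, the nuclear receptor, was at 4.04, 4.27 and 3.31 FPKM in shRNA1 knockdown libraries, against 0.802, 1.03 and 1.06 FPKM in controls. Its ratio of means, 4.02, was close to that of Ppp1r14c. The added pseudocount of 1 FPKM shrinks its log2 fold change to 1.31 (SE 0.131), and with a pseudocount of 0.1 it was 1.90. In the shRNA2 table Nr0b1 was at 0.166 and 0.496 FPKM in knockdown, against 0.351 and 1.0 FPKM in controls, under the mean of 1 FPKM needed for testing. Of the olfactory receptor genes, 51.8% and 27.3% lay above it in the 2 knockdown libraries.

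**Figure D1:**
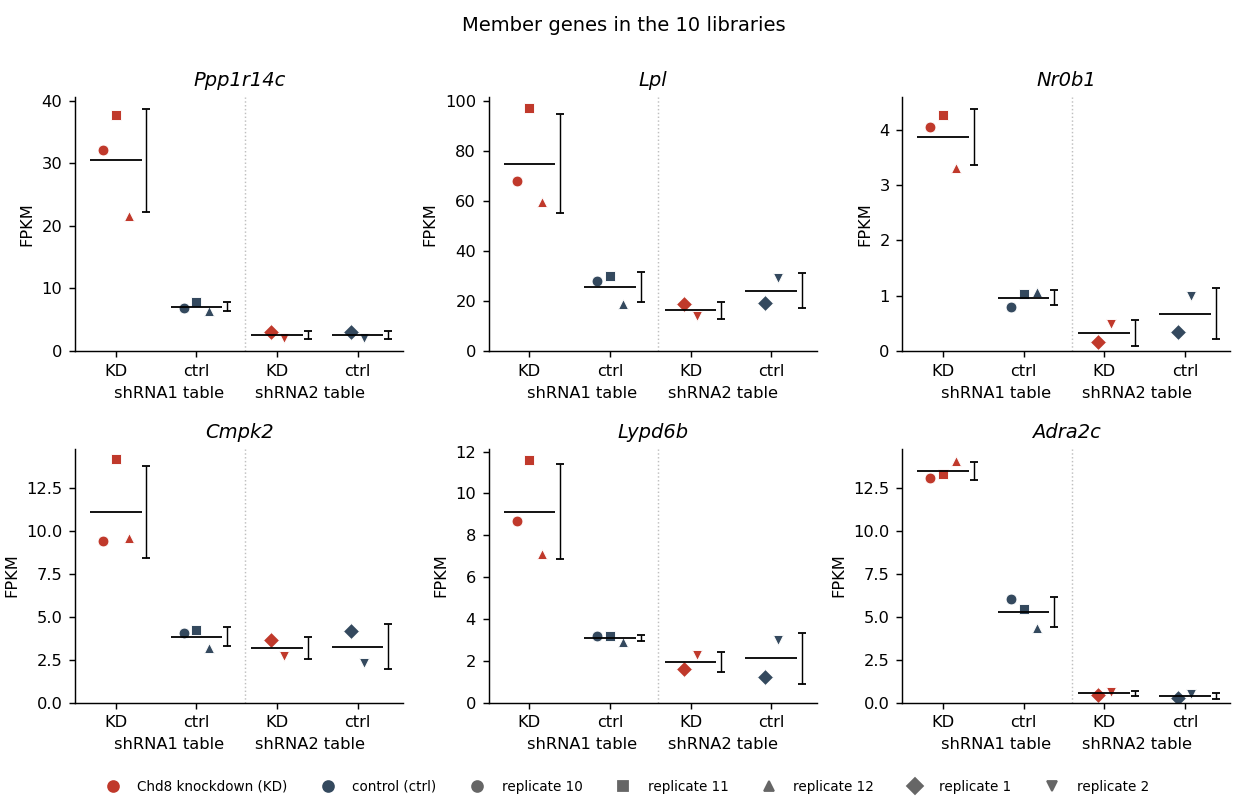
FPKM of the 6 genes in each library, with knockdown (KD) left of control (ctrl) for the shRNA1 and the shRNA2 table. Points are libraries, horizontal lines group means and whiskers ± SD (n = 3 each with shRNA1, n = 2 each with shRNA2); the tables were made separately, so levels are to be read within a table. Every shRNA1 knockdown point lies above every shRNA1 control point, the lowest at 1.99 (Lpl) to 3.13 times (Nr0b1) the highest control.

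Most members had a like order across the shRNA1 libraries, but the share of all genes with that order was not counted. Same-numbered libraries also deviated together across all 11291 tested genes (correlations 0.122, 0.242 and 0.193 for replicates 10, 11 and 12). Knockdown replicate 11 had the highest value for 5 of the 6 genes, and replicate 12 the lowest for 4. Among controls, replicate 11 was highest for 4 genes and replicate 12 lowest for 5. Adra2c differed, being highest in knockdown replicate 12 and in control replicate 10. Taken against the control with the same number, the ratios were 2.18 to 3.26 for Adra2c, 2.74, 3.66 and 2.45 for Lypd6b, and 4.62, 4.83 and 3.38 for Ppp1r14c (replicates 10, 11 and 12). Chd8 itself was at 2.09, 1.84 and 1.93 FPKM in those knockdown libraries, lowest in replicate 11, which also had the greatest relative depth (1.39). The part of depth or of residual Chd8 in the order of the libraries was not tested. With shRNA2 the order split: knockdown replicate 1 was the higher for Ppp1r14c, Lpl and Cmpk2, and replicate 2 for Nr0b1, Lypd6b and Adra2c.

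Other genes bordered the choice. Of the 12 largest rises called with shRNA1, the 6 that are not members (Tmsb15b1, 2900009J06Rik, Fxyd7, Nefl, Gje1 and Gstp1) had log2 fold changes of 0.35 to 2.36 with shRNA2. There every knockdown library was above every control in each, as for 27.4% of all tested genes. Tmsb15b1 (limma adjusted p = 0.0118) and Gje1 (0.0212) passed with shRNA2, while 2900009J06Rik (0.208), Fxyd7 (0.166), Nefl (0.0738) and Gstp1 (0.265) did not. The 6 members ranged from -0.53 to 0.14 with shRNA2, where the median of all tested genes was -0.146. Adra2c was the smallest rise inside (1.22), and BC002163 (1.21) and Pcdhgb8 (1.2) came next outside. These last genes were at -1.16 and -1.36 with shRNA2. Pcdhgb8 shares exons with other protocadherin gamma genes, so its value is uncertain.

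Relatives of the members, which the choice did not use, were tested on the whole tables. Over all tested genes, 3.84% rose and 5.15% fell with shRNA1, and 13.2% rose and 10.7% fell with shRNA2. Counts of single lists are to be read beside these shares. Of 103 tested genes in 7 lists drawn around the members' families and pathways, 8 rose, 5 fell and 90 did not pass with shRNA1 (12.6% changed, against 8.99% of all 11291 genes; median log2 fold change 0.01 against 0.02). With the replicate number as a block, which called 2452 of all 11291 genes, 25 of the 103 changed. Without 1 library the count was 1, 0 and 3 (knockdown replicates 10, 11 and 12) and 2, 21 and 1 (control replicates 10, 11 and 12), and each of the 13 calls was lost without at least 2 of the 6 libraries. After rescaling that left small RNA genes out of the totals, 2 rose and 8 fell. With shRNA2, 14 of 110 rose and 9 fell (20.9%, against 23.8% of all 12461 genes). That split depended on the scaling: 15 rose and 3 fell after median-of-ratios rescaling, 14 rose and 3 fell without small RNA genes, and 12 rose and 13 fell after background subtraction. Without 1 shRNA2 library, 8 rose and 0 fell (knockdown replicate 1), 10 rose and 1 fell (knockdown replicate 2), 5 rose and 0 fell (control replicate 1) or 4 rose and 1 fell (control replicate 2).

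Whether Ppp1r14b, a paralog of Ppp1r14c, passed the test with shRNA1 depended on the replicate block. The PP1 inhibitor paralog Ppp1r14b was at 417 ± 19.0 FPKM in shRNA1 knockdown libraries and 540 ± 65.5 FPKM in controls (SD, n = 3 each; log2 fold change -0.37, limma adjusted p = 0.0834, and 0.0402 with the block), and Ppp1r14a was at 26.0 ± 3.06 FPKM in knockdown and 33.4 ± 9.93 FPKM in controls (-0.31, adjusted p = 0.358). Ppp1r14d was at or below 0.0661 FPKM in the 6 libraries. Of 19 tested PP1 inhibitor and myosin phosphatase genes 0 passed with shRNA1 by limma (6 at an unadjusted p under 0.05). Ppp1r14b, Ppp1r1a, Ppp1r12c and Ppp1r1b passed when replicates were blocked, a setting that called 2452 of all 11291 tested genes, against 1015 without it. The smallest p was that of Ppp1r1a, another PP1 inhibitor (-0.51, adjusted p = 0.0506, and 0.0282 with the block), followed by Ppp1r12c, a myosin phosphatase subunit (-0.39, adjusted p = 0.0694, and 0.018 with the block). Ppp1r1b (DARPP-32) was at 65.8 ± 10.2 FPKM in knockdown and 49.8 ± 2.68 FPKM in controls (0.38, adjusted p = 0.0769, and 0.0272 with the block). Of the tested genes of this list 26.3% changed with shRNA2, near the 23.8% of all tested genes. With shRNA2, Ppp1r14a rose (8.45 ± 1.71 FPKM in knockdown and 3.73 ± 1.28 FPKM in controls, SD, n = 2 each; 1.01, adjusted p = 0.0485, a call lost without any 1 of the 4 libraries), as did Ppp1r12b and Ppp1r12c, while Ppp1r8 and the catalytic subunit gene Ppp1cb fell among 19 tested genes.

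Around Lpl, the list of its handling and of lipid uptake had 1 rise among 17 tested genes with shRNA1 (5.88% changed, against 8.99% of all tested genes). That gene was Vldlr, a receptor of the LDL receptor family that binds lipoproteins and reelin (7.59 ± 1.53 FPKM in knockdown and 4.42 ± 0.462 FPKM in controls; 0.65, SE 0.15, adjusted p = 0.0377). With shRNA2 its values were 4.16 and 4.12 FPKM in knockdown, against 5.63 and 6.60 FPKM in controls (adjusted p = 0.204). Gpihbp1, which carries the lipase to the capillary wall, was listed at 0 in all 10 libraries. Apoe, a lipoprotein component, was at 8.11 ± 3.37 FPKM in shRNA1 knockdown and 13.4 ± 2.11 FPKM in controls (-0.71, adjusted p = 0.102), and Fabp5, a fatty acid binding protein, had a log2 fold change of 0.36 (adjusted p = 0.157, and 0.0497 with the block). Of the sister lipases, Lipc was at 0 in 5 of the 6 shRNA1 libraries, and Lipg was at 1.24 ± 0.505 FPKM in knockdown and 2.04 ± 0.558 FPKM in controls (-0.44, adjusted p = 0.173, and 0.0399 with the block). With shRNA2, Cd36, a fatty acid receptor, rose (2.07) and Sort1, a sorting receptor, fell (-0.76) among 19 tested genes (10.5% changed, against 23.8% of all). Cd36 was at 4.7 and 2.48 FPKM in knockdown, against 0.0873 and 0.0358 FPKM in controls, in the libraries where silent genes were raised.

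For Cmpk2, the comparison was with interferon-induced genes and with nucleotide supply. Rsad2 (viperin), its neighbour and another interferon-induced gene, was at 0.0535, 0 and 0.0311 FPKM in shRNA1 knockdown libraries, against 0.0691, 0.145 and 0.0448 FPKM in controls. Of 6 tested interferon-induced genes 1 fell, 0 rose and 5 did not pass (16.7% changed, against 8.99% of all tested genes). The gene that fell was Irf9, an interferon regulatory factor (2.35, 1.35 and 2.92 FPKM in knockdown, against 8.47, 7.62 and 4.37 FPKM in controls; -1.28, SE 0.255, adjusted p = 0.027), and the median of the list was -0.69. Usp18, an interferon-induced protease, was at 2.18, 0.0483 and 4.29 FPKM in knockdown, against 12, 13.5 and 3.06 FPKM in controls, which overlap (-1.81, adjusted p = 0.108). With shRNA2, Isg15 rose (1.63) among 8 tested genes of the list (12.5% changed, against 23.8% of all tested genes). Among 27 tested genes of pyrimidine and mitochondrial nucleotide supply, Tk1, the S-phase thymidine kinase, fell (-0.64, SE 0.1, adjusted p = 0.0178). Nme6, a nucleoside diphosphate kinase (0.39, adjusted p = 0.0395), and Slc25a33, a mitochondrial pyrimidine carrier (0.46, adjusted p = 0.0474), rose. That is 11.1% of the list changed, against 8.99% of all tested genes. The cytosolic paralog Cmpk1 was at 153 ± 11.5 FPKM in knockdown and 121 ± 8.55 FPKM in controls (0.34, adjusted p = 0.0559, and 0.0181 with the block). With shRNA2, 0 of the 27 genes rose and 5 fell: Tk1, Dck, Umps, Rrm1 and Rrm2 (18.5% changed, against 23.8% of all tested genes).

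Lypd6, the paralog of Lypd6b and its neighbour on the chromosome, was higher with shRNA1, at 28.7, 29.2 and 24.0 FPKM in knockdown, against 17.8, 18.8 and 14.2 FPKM in controls (0.66, SE 0.127, adjusted p = 0.0245). With shRNA2 it fell, at 2.88 and 4.34 FPKM in knockdown, against 12 and 9.68 FPKM in controls (-1.37, SE 0.279, adjusted p = 0.0148). This fall was no longer called without any 1 of the 4 shRNA2 libraries (adjusted p up to 0.14). In the Ly6/uPAR and nicotinic receptor list Ly6h also rose with shRNA1 (0.47, SE 0.0876, adjusted p = 0.0234), and the other 6 tested genes did not pass, Lypd1 (0.20, adjusted p = 0.514) and Lrp6 (-0.27, adjusted p = 0.409) among them. Thus 2 of the 8 tested genes of the list rose and 0 fell, a larger share than the 8.99% of all tested genes changed. With shRNA2, Ly6h, Cd59a and Chrna5 rose and Lypd6 fell among 8 tested genes, a larger share than the 23.8% of all. Chrna5 was at 3.24 and 3.18 FPKM in knockdown, against 0.248 and 0.0901 FPKM in controls, in the libraries where silent genes were raised.

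Around Nr0b1, the classical partners were not measurable with shRNA1: Nr5a1 (steroidogenic factor 1), Nr5a2, Esrrb and the paralog Nr0b2 were at 0 in all 6 libraries. Of 11 tested genes of its list Rbfox2, a splicing factor (0.38, adjusted p = 0.0328), and Nr2f1, a nuclear receptor of cortical patterning (0.45, adjusted p = 0.0411), rose, while Nr4a2 (-0.59, adjusted p = 0.0207) and the progenitor factor Sox2 (-0.68, adjusted p = 0.0236) fell. That is 36.4% of the tested genes of the list, against 8.99% of all. Sox2 is also counted among the radial glia markers that fell with shRNA1, given below. With shRNA2 Nr0b2 was at 2.43 and 2.14 FPKM in knockdown, against 0 and 0.0616 FPKM in controls (adjusted p = 0.00276), in the libraries where silent genes were raised. Nr4a1, Nanog and Klf4 rose there too, and 0 of 14 tested genes fell (28.6% changed, against 23.8% of all). Around Adra2c, Gnai1, a Gi alpha subunit, rose (0.46, SE 0.0893, adjusted p = 0.0245), and its relative Gnai3 fell (-0.33, SE 0.0762, adjusted p = 0.0377) among 15 tested genes, while Gnaz, another Gi class subunit, was at 0.37 (adjusted p = 0.0851). The list thus had 13.3% changed with shRNA1, against 8.99% of all tested genes. With shRNA2, Rgs4 and Maoa rose among 15 tested genes and 0 fell (13.3% changed, against 23.8% of all). The other alpha-2 receptors were near 0 with shRNA1: Adra2a was at or below 0.16 FPKM and Adra2b at or below 0.019 FPKM. After the rescaling without small RNA genes, which moved the median of all tested genes to -0.10, the calls of Vldlr, Nme6, Slc25a33, Rbfox2, Nr2f1 and Gnai1 were lost.

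**Figure D2:**
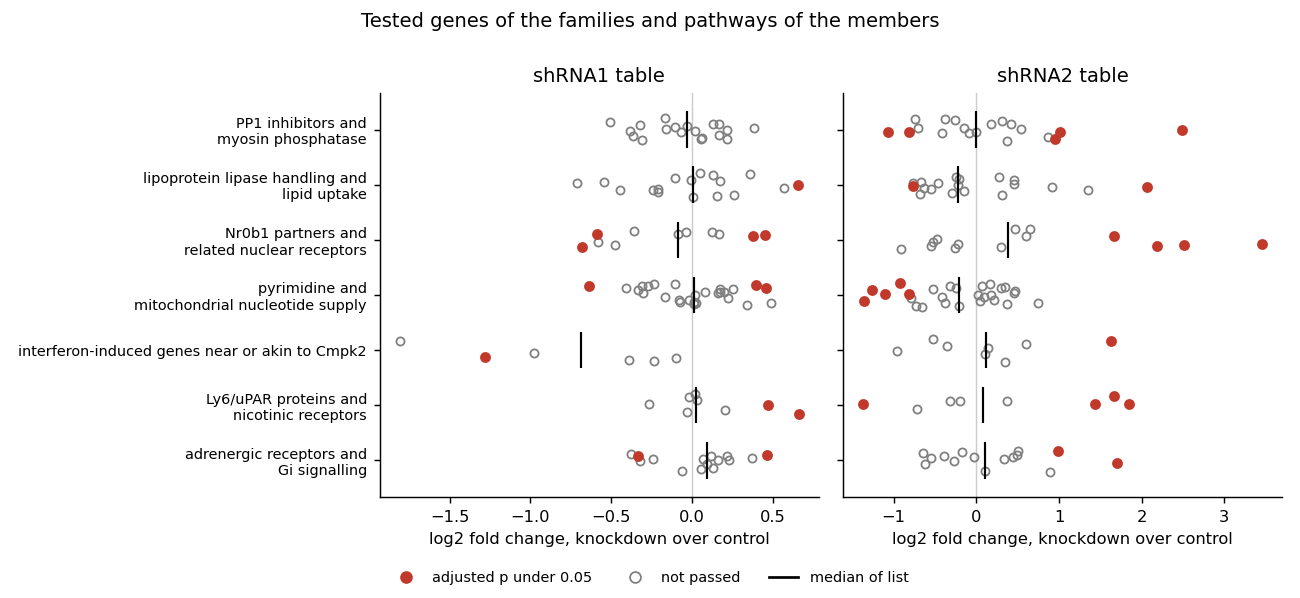
Log2 fold change (knockdown over control) of each tested gene of the 7 lists, with shRNA1 on the left and shRNA2 on the right. Filled points have an adjusted p under 0.05 and vertical bars are list medians; with shRNA1 the PP1 list holds 0 filled points and the interferon list has a median of -0.69.

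The genes next to the members on the chromosome were examined as a readout that the choice did not use. The 24 neighbours were the closest pair on each side in the RefSeq order among genes that the FPKM tables hold. Of them, 9 could be tested with shRNA1, and 3 rose and 0 fell (33.3%, against 8.99% of all tested genes changed). These were Lypd6, next to Lypd6b, and Dok7 and Lrpap1, which lie on the same side of Adra2c. Dok7, an adaptor of muscle synapse formation, was at 4.18 ± 0.392 FPKM in knockdown and 1.95 ± 0.476 FPKM in controls (0.82, SE 0.15, adjusted p = 0.0224). Lrpap1, a chaperone of LDL receptor family proteins, was at 125 ± 4.17 FPKM in knockdown and 84.9 ± 5.58 FPKM in controls (0.55, SE 0.0811, adjusted p = 0.0139). Without 1 library the count was 0, 0 and 2 (knockdown replicates 10, 11 and 12) and 1, 3 and 1 (control replicates 10, 11 and 12). The 6 that did not pass were Ints10 and Atp6v1b2 near Lpl, Rnf144a near Cmpk2, and Epc2, Kif5c and Mmadhc near Lypd6b, with log2 fold changes of 0.02 to 0.25 (Atp6v1b2 had an adjusted p of 0.209, and 0.0459 with the block). No neighbour of Ppp1r14c or Nr0b1 could be tested with shRNA1. With shRNA2, 5 of 12 changed (41.7%, against 23.8%): Ints10 and Lypd6 fell, and B020014A21Rik, Slc18a1 and Gm20187, which averaged 0.0328 to 0.22 FPKM in controls, rose. The falls of Ints10 and Lypd6 were both lost without any 1 of the 4 libraries.

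**Figure D3:**
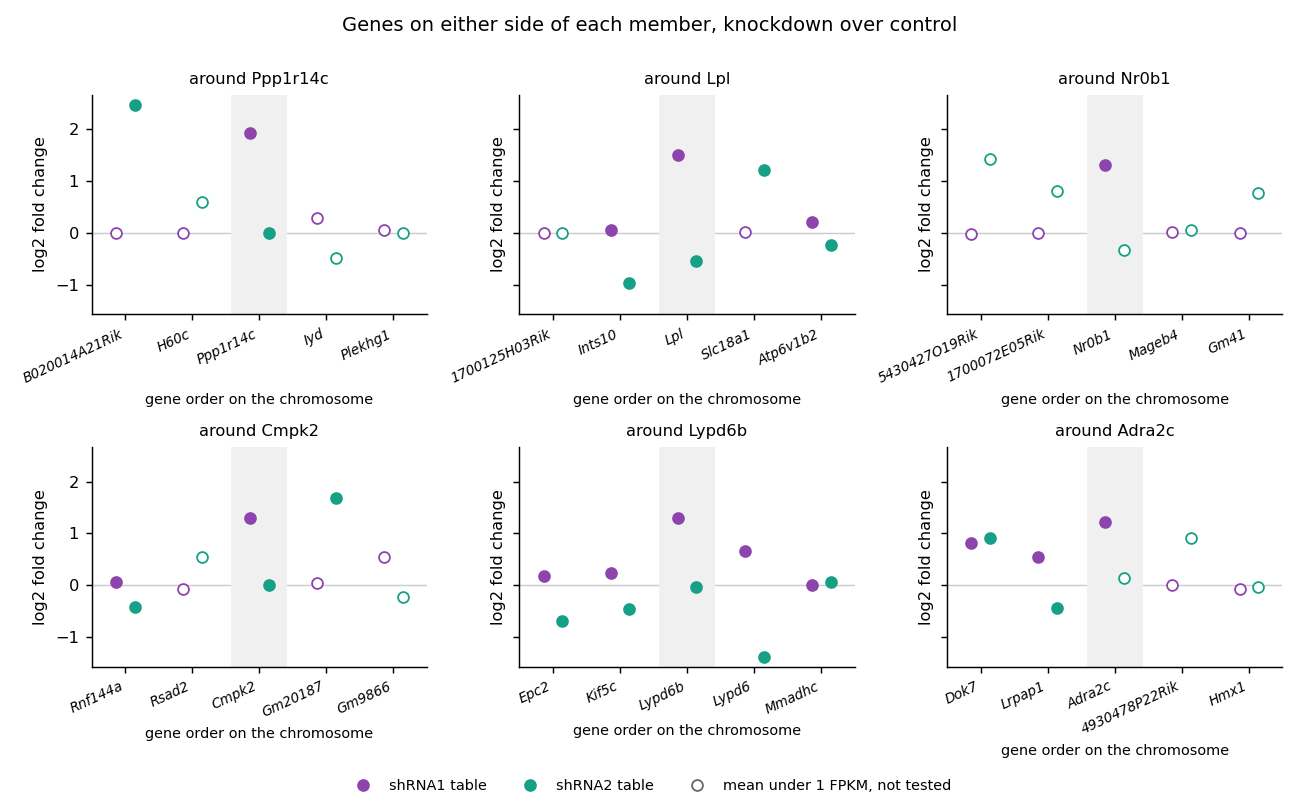
Log2 fold change (knockdown over control) of each member (grey band) and of its closest neighbours among the genes in the FPKM tables, in chromosome order. Purple is shRNA1 and green is shRNA2. Open points have a mean under 1 FPKM and were not tested. Adra2c has raised neighbours on one side with shRNA1 (0.82 and 0.55), and Lypd6 lies at 0.66 with shRNA1 and -1.37 with shRNA2.

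The genes whose pattern was most like the members were sought by the distance between log2 profiles over the 10 libraries, each taken relative to its control mean. The members lay 0.606 (Lypd6b) to 1.04 (Ppp1r14c) from their own mean profile. The closest other genes were Kcnv1, a modifier subunit of potassium channels (distance 0.793), Kirrel3, an adhesion molecule of the nephrin family (0.945), and Mc4r, a melanocortin receptor (1.0), followed by Figf, Rgs6, Ndrg1, Ica1, Trhr, Prickle1 and Sh3bp4 (1.01 to 1.11). Kcnv1 was at 9.91 ± 0.851 FPKM in shRNA1 knockdown and 4.45 ± 1.10 FPKM in controls (SD, n = 3 each), and at 2.35 ± 0.228 FPKM in knockdown and 2.38 ± 0.475 FPKM in controls with shRNA2 (n = 2 each). Mc4r was at 34.5 ± 10.7 FPKM in shRNA1 knockdown and 17.0 ± 3.96 FPKM in controls. These genes were found by the same contrast that chose the members, so the values describe a pattern and test nothing.

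Markers of cell types changed with both shRNAs, while the members rose with shRNA1 only, as the choice required. The list for cortical neurons had 17 markers, of which 8 rose and 0 fell with shRNA1 (47.1%, against 8.99% of all tested genes), and their summed level was 4030 to 4920 FPKM in knockdown and 2870 to 3350 FPKM in controls. With shRNA2, where 13.2% of all tested genes rose and 10.7% fell, 0 rose and 6 fell (35.3% changed), and the sum was 3540 to 3800 FPKM in knockdown and 5180 to 5640 FPKM in controls. Of 12 radial glia markers 8 fell with shRNA1 (1130 to 1700 FPKM in knockdown, 1390 to 1810 FPKM in controls) and 3 with shRNA2 (25%, near the 23.8% of all tested genes; 1060 to 2220 FPKM in knockdown, 1860 to 1890 FPKM in controls). Of 7 intermediate progenitor markers 2 fell with shRNA1 (465 to 516 FPKM in knockdown, 671 to 822 FPKM in controls), and with shRNA2 2 fell and 1 rose (42.9% changed). All 5 tested interneuron markers fell with shRNA1 (9.18 to 9.29 FPKM in knockdown, 18.6 to 27.6 FPKM in controls), and 0 of 8 passed with shRNA2. In bulk libraries, a change in the share of cells of a type and a change of RNA per cell cannot be told apart, and the part of cortical cell composition in the members' values was not tested.

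Markers of cell types outside the cortical lineage were measured too, since some of these cells are known to express Lpl. With shRNA1, the 12 microglia and macrophage markers summed to 2.25 to 8.82 FPKM in knockdown and 3.98 to 12.2 FPKM in controls, and 0 of 4 tested passed by limma, with 1 (Tyrobp) at an unadjusted p under 0.05. The 10 endothelium and pericyte markers summed to 1.73 to 3.54 FPKM in knockdown and 3.54 to 3.78 FPKM in controls, and Flt1, Cdh5 and Tek were below 0.1 FPKM in each of the 6 shRNA1 libraries. The 7 erythroid markers summed to 23.2 to 114 FPKM in knockdown and 137 to 264 FPKM in controls, and 2 of 4 tested fell. Meningeal markers summed to at most 2.33 FPKM and oligodendrocyte precursor markers to at most 1.97 FPKM. The 5 choroid plexus markers reached 44.1 FPKM in 1 knockdown library, through Ttr at 42.9 FPKM in replicate 10, and were at most 0.3 FPKM in the controls. The part of any of these cell types in the members' values was not tested. With shRNA2, 6 of 9 tested microglial markers rose (66.7% changed, against 23.8% of all tested genes; 19.5 to 36.7 FPKM in knockdown, 2.59 to 7.95 FPKM in controls), in the knockdown libraries with raised silent genes. There Kcnj8 of the endothelium and pericyte list and Kl of the choroid plexus list rose, 0 of 2 tested erythroid markers passed, and no meningeal or oligodendrocyte precursor marker could be tested.

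**Figure D4:**
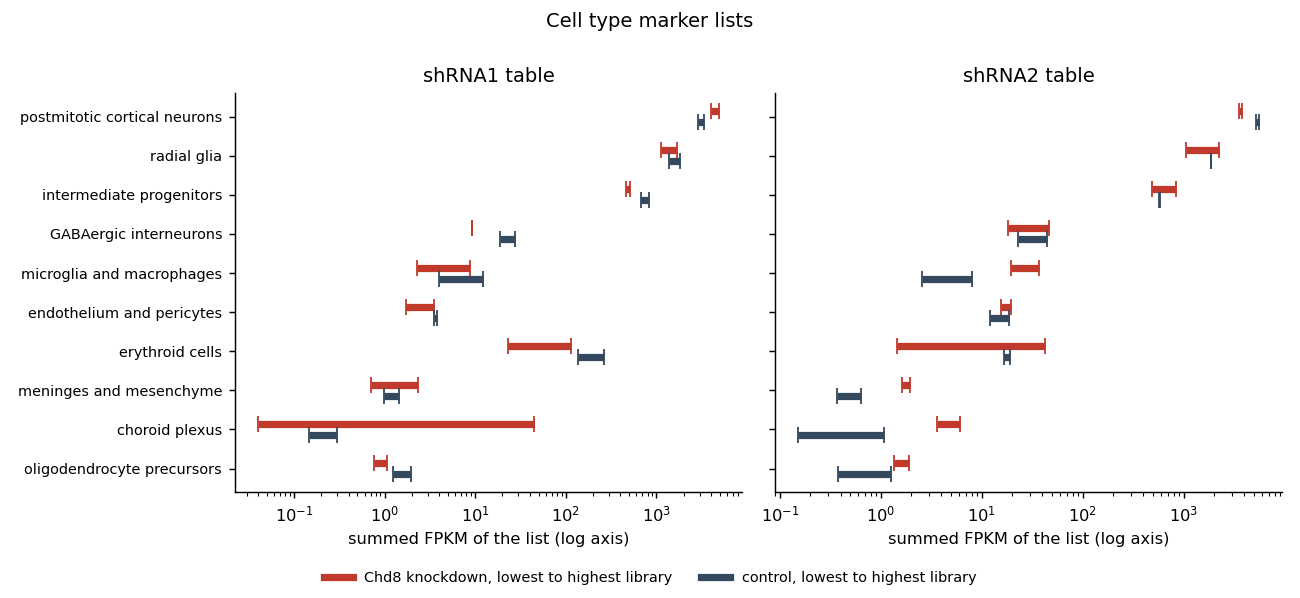
Summed FPKM of 10 cell type marker lists on a log axis, from the lowest to the highest library of each group, with knockdown above control. With shRNA1 the neuron list is higher in knockdown (4030 to 4920 FPKM, against 2870 to 3350 FPKM in controls), and with shRNA2 it is lower (3540 to 3800 FPKM, against 5180 to 5640 FPKM in controls).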

How the data were processed

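RNA from GFP-positive cells sorted from electroporated mouse cortex was sequenced in 10 libraries. Per the labels' protocols, a Qiagen RNeasy Plus column gave the RNA and a low-input kit of Clontech the libraries. Tools listed in the submitters' processing notes are TopHat2, Bowtie, Cufflinks 2.0.0, Cuffdiff and the build mm9. The sources used here give no annotation, strand setting or read filter, and overlapping genes therefore have uncertain values. What the authors deposited is FPKM, a level scaled for transcript length and library size, with 1 column per library, in separate tables for shRNA1 and shRNA2. FPKM levels of the named genes were not compared across tables. Ranks of Adra2c within a library and means of the olfactory receptor genes were set side by side across them.

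Values were transformed to log2(FPKM + 1), which understates changes of low genes. Genes averaging 1 FPKM or more in a table were fitted with limma 3.58.1 in R 4.3.3 (intensity trend, two-sided), knockdown against control within a table. P-values were adjusted by Benjamini-Hochberg over all tested genes, and "rose", "fell" and "changed" mean an adjusted p under 0.05. The members and gene lists were chosen with earlier results of these data known. The members' own values in both tables served to choose them and were not tested. Replicates are separate pools of embryos.

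Named genes were the members, Chd8, the members' close paralogs, up to 3 genes with the smallest p in each of 7 lists and further called ones up to 5, the 10 nearest profiles (Euclidean distance over the 10 libraries) and neighbours in the RefSeq order of GRCm38.p6. That build differs from mm9, and it was used for names, order and start sequences. Only RefSeq genes that the FPKM tables hold counted as neighbours. Genes bordering the choice, Gpihbp1, Nr5a1, Nr5a2, Esrrb and the genes called with shRNA2 were named after their values were seen. A gene that the rule would name is not reported here. Motifs were searched as exact letters in 32841 windows of 300 bases. Same-numbered knockdown and control libraries deviated together with shRNA1 (correlations of deviations across 11291 genes 0.122, 0.242 and 0.193 for replicates 10, 11 and 12). With shRNA2 the correlation was -0.0285. Only the replicate block and the ratios of same-numbered libraries treat those numbers as pairs. The main fit ignores this pairing, and calls and adjusted p-values come from it unless the block or another alternative is named. Alternatives were other pseudocounts (0.1 and 5), filters (none and a mean of 5 FPKM), no trend, a replicate block, leaving out each library, rescaling by the median of ratios or by totals without the 720 microRNA and small nucleolar RNA genes, and subtracting the mean of the olfactory receptor genes. For counts of neighbours these alternatives were added after seeing the data.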

Additional observations from a re-analysis of the deposited data

Results flagged for a closer look

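Some genes had every knockdown library on one side of every control library with shRNA1 and on the opposite side with shRNA2. The difference between the shRNAs was not tested for any of them, and 40.4% of all tested genes were lower without overlap with shRNA2. Among the members this held for Lpl, at a log2 fold change of 1.51 with shRNA1 and -0.53 with shRNA2, a member that was chosen for that contrast. Lypd6, the neighbour of Lypd6b, was at 0.66 with shRNA1 and -1.37 with shRNA2. Lrpap1, the neighbour of Adra2c, was at 0.55 and -0.44. Vldlr was at 0.65 with shRNA1 and -0.47 with shRNA2, and Rbfox2 at 0.38 and -0.54. Irf9 had the opposite order, -1.28 with shRNA1 and 0.35 with shRNA2, where silent genes were raised in the knockdown libraries. BC002163 (-1.16 with shRNA2) and Pcdhgb8 (-1.36) bordered the members in the size of their shRNA1 rise. Ndrg1 (-0.59 with shRNA2) and Sh3bp4 (-0.48) were among the profiles closest to the members.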

How the results depend on the processing

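With shRNA1 the log2 fold changes of the 6 members stayed above 0 in every setting run. Their choice as the strongest rises left little room for another sign, so this describes them and tests nothing. The log2 fold changes were 1.10 (Adra2c) to 1.81 (Ppp1r14c) after rescaling without small RNA genes, where 19.0% of called genes were higher in place of 42.8%. With a pseudocount of 5 they were 0.57 (Nr0b1) to 1.53 (Ppp1r14c). With shRNA2, after background subtraction, Ppp1r14c was at -0.26, Cmpk2 at -0.22, Lypd6b at -0.38 and Lpl at -0.58. Other settings moved these shRNA2 values upward. After median-of-ratios rescaling Ppp1r14c was at 0.14, Cmpk2 at 0.14, Lypd6b at 0.08 and Lpl at -0.36. Cmpk2 was at 0.32 without control replicate 1 and -0.31 without control replicate 2, and Lypd6b at -0.45 and 0.38. The 1015 genes changed with shRNA1 became 470 without a filter and 2452 with the replicate block (1012 of the 1015 among them), and 47 to 1846 without 1 library. Related genes changed with shRNA1 numbered 6 with no filter, 25 with the block and 0 to 21 without 1 library, against 13; neighbours 1 with no filter and 0 to 3 without 1 library, against 3. With shRNA2, a minimum mean of 5 FPKM left 1602 of 2971 genes, 15 of 23 related genes and 2 of 5 neighbours, and leaving out 1 library left 485 to 1387 genes, 5 to 11 related genes and 1 to 3 neighbours; a lone library is then assumed to vary like the other group. The higher share of shRNA2 calls was 55.2%, against 74.4% after median-of-ratios rescaling, 82.8% without small RNA genes, 84.4% with no filter, 44.0% after background subtraction and 31.3% at a mean of 5 FPKM. Chd8 ranged from -0.70 to -0.59 with shRNA1 without 1 library. With shRNA2 Chd8 was at -0.35 after median-of-ratios rescaling, -0.33 without small RNA genes and -0.60 after background subtraction, against -0.51 in the main fit. The replicate block changed no call of Chd8, and with shRNA2 it gave 2719 genes. The cause of these shifts was not tested. Nr0b1 and Adra2c were below the filter in the shRNA2 table and within the range of silent genes in its knockdown libraries.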
